A study of Mus musculus with 6 samples.

Results

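In islets of diabetic and control mice, 10 genes of tissue injury and inflammation were followed by RNA sequencing. They were Nupr1, Clu, Lcn2, Saa3, C3, Cxcl1, Ccl2, Il1b, Il6 and Tnf. These genes were picked by name as genes of acinar injury, of the acute phase response and of cytokine signalling, and all 10 had a row among the 44713 genes of the deposited table. The study was undertaken to find which circular RNAs and mRNAs differ between db/db islets and control islets. In 3 db/db mice the leptin receptor does not work, so that the animals become obese and diabetic, and the labels give their genotype as Lepr-/-. The 3 control mice were db/m littermates, whose genotype is given as wild type in the labels. All were male, kept on a normal diet and 10 weeks old at islet isolation, according to the methods of the study, which name the BKS.Cg-Dock7m+/+Leprdb/Nju line, whereas the labels name the strain C57BL/6. The mutation is carried in the whole body and not in islets alone, so that genotype, obesity and diabetes cannot be told apart in db/db mice. The libraries were made from total RNA without its ribosomal part, and the islets came from a collagenase digest and a Histopaque gradient.

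These genes mark different layers of the response to tissue damage. The cytokines Il1b, Il6 and Tnf and the chemokines Cxcl1 and Ccl2 are signals released mainly by immune cells and by stressed tissue cells. The cytokines act through NF-kB and through the JAK-STAT pathway. Lcn2, Saa3 and C3 are secreted proteins that many tissues make in answer to those cytokines. Nupr1 and Clu answer to stress of the cell itself, and Nupr1 was first described in the exocrine pancreas during acute pancreatitis. In islets, IL-1β and TNF-α are known to be toxic to β cells.

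The 6 libraries held 15641797 to 20614531 counts each. Expression levels are given in CPM, which are read counts scaled to 1 common library size, with library sizes corrected by the TMM method, and 3 counts, taken as the smallest level a library could show, correspond to 0.110 to 0.241 CPM. Groups were compared with the quasi-likelihood test of edgeR over the 12760 genes that passed its filter on low counts, and a gene was called at an adjusted p (Benjamini-Hochberg) under 0.05. The label of islet cells was checked against marker genes. A list of 28 acinar genes, which encode digestive enzymes and their partners, took 70.8% to 77.2% of all counts in db/db mice and 53.8% to 69.2% in db/m mice. Ins1 and Ins2, the insulin genes, took 0.122% to 0.502% of the counts in db/db mice and 0.605% to 3.75% in db/m mice, so that all libraries held mostly acinar RNA. db/m replicate 1 stood apart, with the lowest acinar share (53.78%, exact 95% Clopper-Pearson interval 53.75% to 53.80%) and the highest insulin share. In such bulk samples fewer cells of a type and less RNA per cell cannot be told apart. The replicates are separate mice.

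The genes fell into an abundant pair, an intermediate pair and a group near the detection limit. Per kilobase of mRNA, the expression level of Nupr1 averaged 1660 CPM in db/db and 409 CPM in db/m mice, and that of Clu 426 and 259 CPM. C3 followed with 3.36 and 1.05 CPM per kilobase, and Lcn2 with 3.20 and 0.867. The other 6 genes had at most 1.61 CPM per kilobase in either group mean, the highest being that of Saa3 in db/db mice. These levels use the length of the RefSeq mRNA, and with all annotated exons as length the mean over both groups was 257.6 in place of 1035 CPM per kilobase for Nupr1 and 0.661 in place of 2.03 for Lcn2. Nupr1, Clu, Lcn2 and C3 passed the filter on low counts. With Il1b, these were also the 5 genes with at least 1 read in every mouse. None of the 10 genes was called by edgeR, beside 79 genes in the whole comparison, or 0.619% of those tested, and 0.133% called as higher. At an unadjusted p under 0.05, 2 of them (Nupr1 and Lcn2) were higher in db/db mice, beside 5.04% of all tested genes, and none was lower, beside 9.89%. DESeq2 called Nupr1 and Lcn2, beside 4.24% of the genes for which it gave an adjusted p, and had all 4 of the genes above the filter at an unadjusted p under 0.05, beside 9.91%. In edgeR without a filter on low counts, Nupr1 and C3 were called, beside 3.78% of 23506 genes, and Saa3 and Lcn2 joined them at an unadjusted p under 0.05, beside 12.4%.

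Nupr1 encodes a small chromatin-binding protein that is induced by cell stress, and it was the most abundant of the 10 genes per length. In GRCm38 the gene spans bases 126623249 to 126630861 of chromosome 7 (minus strand). Its expression level was 1021, 1063 and 1034 CPM in db/db replicates 1, 2 and 3. It was 126, 341.5 and 301 CPM in db/m replicates 1, 2 and 3. Every db/db mouse lay above every db/m mouse, and after TMM scaling the db/db mice lay close together while db/m replicate 1 was the lowest of all. Groups that do not overlap in this direction were found for 8.53% of all tested genes. The means were 1039 ± 21.3 CPM (SD, n = 3) in db/db and 256 ± 114 CPM (SD, n = 3) in db/m mice, a fold change of 4.06. The log2 fold change was 2.02 with a standard error of 0.40, and the adjusted p was 0.0654 in edgeR, above the threshold. In DESeq2 the log2 fold change was 2.04 with an adjusted p of 2.64e-06. The exact permutation test on the 6 values gave p = 0.1 (two-sided), the smallest that 3 mice against 3 allow. Without db/m replicate 1 the log2 fold change was 1.72 with an adjusted p of 0.0566 in edgeR. With a score of the acinar genes as a covariate it was 1.615 with an adjusted p of 0.0631, and every db/db mouse also lay above every db/m mouse with library size alone. There the db/db values spread more widely, at 617, 1055 and 949 CPM in replicates 1, 2 and 3. The TMM factors ran from 0.605 in db/db replicate 1 to 1.75 in db/m replicate 1.

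The start of Nupr1 is shown because it is the only one of the 8 promoters at hand with a match to the C/EBP-ATF response element, TGATGNAA, through which ATF4 and CHOP act in the integrated stress response. The 250 bases before its RefSeq start site lie at chr7:126625471-126625720 (GRCm38.p6, minus strand) and are printed 5′ to 3′ with motif matches in capitals.
Nupr1: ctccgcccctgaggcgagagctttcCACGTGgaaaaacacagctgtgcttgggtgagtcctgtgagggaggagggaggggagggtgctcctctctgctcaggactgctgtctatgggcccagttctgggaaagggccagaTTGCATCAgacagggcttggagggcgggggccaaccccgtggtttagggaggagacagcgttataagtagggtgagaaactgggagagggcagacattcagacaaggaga
The first match is an E-box, CACGTG, from base -225 to -220 counted from the start site. The other, from -110 to -103, is the response element read on the opposite strand, and the matches do not overlap. On either strand, TGATGNAA occurred in 3.45% of 32851 RefSeq promoter windows of this length, and CACGTG in 6.02%.

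Clu encodes clusterin, a secreted chaperone that binds misfolded proteins and limits complement lysis. It lies on chromosome 14 from 65968483 to 65981547 on the plus strand. Its level was 938.5, 709.9 and 666 CPM in db/db replicates 1, 2 and 3, and 302, 541 and 563 CPM in db/m replicates 1, 2 and 3. The groups did not overlap, beside 8.53% of all tested genes in this direction. However, db/m replicates 2 and 3 came near the lowest db/db mice, and with library size alone in place of TMM scaling the groups overlapped. The means of 771.5 ± 146 CPM and 468 ± 145 CPM (SD, n = 3 each) differed by a log2 fold change of 0.72 with a standard error of 0.34 and an adjusted p of 0.364 in edgeR. The log2 fold change was 0.19 with library size alone and 0.29 with the acinar covariate. The change of Nupr1 was therefore compared with Clu within each library, where scaling cancels. The ratio of Nupr1 to Clu counts was 1.09, 1.497 and 1.55 in db/db replicates 1, 2 and 3 and 0.419, 0.632 and 0.535 in db/m replicates 1, 2 and 3. Again the groups did not overlap (exact permutation test, p = 0.1, two-sided). This ratio was chosen after the values had been seen.

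**Figure D1:**
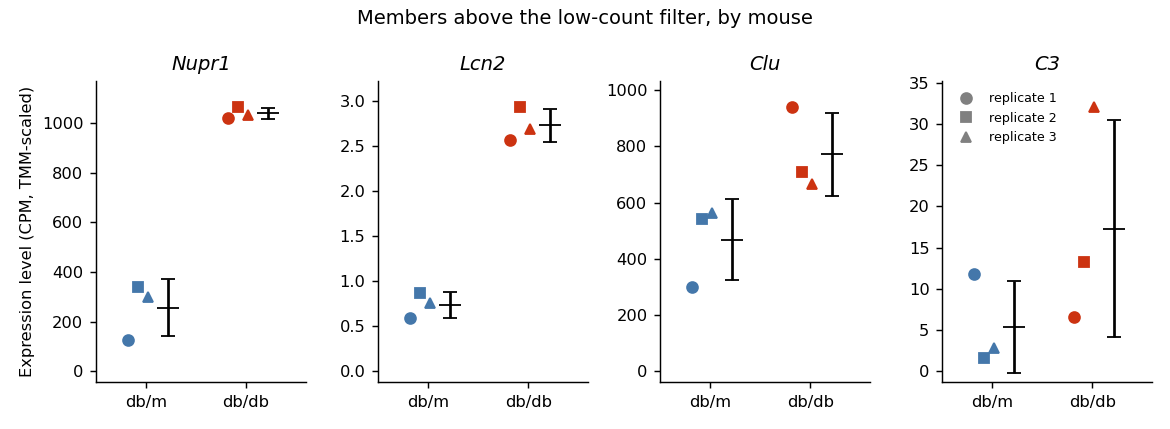
Expression level in CPM (vertical axis, TMM-scaled, linear, a separate scale for each gene) of Nupr1, Lcn2, Clu and C3 in each mouse. Symbols give the replicate number, and the black dash and bar give the mean and SD of 3 mice. The db/db mice lie above all db/m mice for Nupr1, Lcn2 and Clu, whereas C3 overlaps between the groups.

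Lcn2 encodes lipocalin 2, which withholds iron from bacteria by binding their siderophores and is induced by IL-1 and IL-6 in epithelia. It lies on chromosome 2 from 32384633 to 32388252 on the minus strand. Only 32, 49 and 40 reads were counted on it in db/db replicates 1, 2 and 3, and 16, 15 and 14 in db/m replicates 1, 2 and 3. These correspond to 2.57, 2.93 and 2.69 CPM in db/db and to 0.587, 0.874 and 0.758 CPM in db/m mice. The groups did not overlap, beside 8.53% of all tested genes in this direction, and the spread within each was narrow after TMM scaling. The means were 2.73 ± 0.184 CPM and 0.740 ± 0.144 CPM (SD, n = 3 each), a fold change of 3.69. The log2 fold change of 1.88 had a standard error of 0.43 and an adjusted p of 0.0902 in edgeR, and the exact permutation test gave p = 0.1, its smallest value. DESeq2 gave a log2 fold change of 1.91 with an adjusted p of 0.0122. Without db/m replicate 1 the log2 fold change was 1.76 in edgeR, and with the acinar covariate it was 1.77. With library size alone the db/db values spread more widely, at 1.55, 2.91 and 2.47 CPM in replicates 1, 2 and 3, and the groups still did not overlap.

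The promoter of Lcn2 is shown because this gene is known to be switched on by NF-kB together with C/EBP factors, and its window held matches to both. It lies at chr2:32387740-32387989 (GRCm38.p6, minus strand).
Lcn2: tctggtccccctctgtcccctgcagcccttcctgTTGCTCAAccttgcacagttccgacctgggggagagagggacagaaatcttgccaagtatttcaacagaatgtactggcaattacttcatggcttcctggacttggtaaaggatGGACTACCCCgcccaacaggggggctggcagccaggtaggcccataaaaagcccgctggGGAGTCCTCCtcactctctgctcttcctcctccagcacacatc
The match from -216 to -209 is to the C/EBP motif TTNNGNAA, on the opposite strand, and those from -102 to -93 and from -43 to -34 are to the NF-kB consensus. None of them overlap. These motifs are common, in 36.8% of all promoter windows for C/EBP and in 23.2% for NF-kB, and each was found in 6 of the 8 promoters at hand. Clu and Ccl2 had no entry in the promoter table.

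Saa3, an acute phase apolipoprotein made outside the liver, was detected in 3 of 6 mice. It lies on chromosome 7 from 46711998 to 46715700 on the minus strand. It had 27, 0 and 6 reads in db/db replicates 1, 2 and 3 and 0, 6 and 0 in db/m replicates 1, 2 and 3. A single db/db mouse thus held most of the reads, and the groups overlapped (exact permutation test, p = 0.4, two-sided). In edgeR without a filter the log2 fold change was 2.89 with an adjusted p of 0.246. Of the stretches of 50 bases in its exons, 4.15% occur in any of 519 other genes as well, and 9 stretches occur in 1 other gene whose name begins with Saa. Saa1 and Saa2 had no read in any mouse.

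C3, the central complement protein, which is cleaved in all activation routes, lies on chromosome 17 from 57203970 to 57228136 on the minus strand. Its level was 6.58, 13.3 and 32.01 CPM in db/db replicates 1, 2 and 3, and 11.75, 1.57 and 2.87 CPM in db/m replicates 1, 2 and 3. The groups overlapped because db/m replicate 1 lay above db/db replicate 1. The means of 17.3 ± 13.2 CPM and 5.40 ± 5.54 CPM (SD, n = 3 each) gave a log2 fold change of 1.66 with a standard error of 0.75 and an adjusted p of 0.342 in edgeR (exact permutation test, p = 0.2, two-sided). The value rested on single mice. Without db/db replicate 3 it was 0.88, without db/m replicate 1 it was 2.98, and with the acinar covariate it was 3.32, with adjusted p-values of 0.694, 0.125 and 0.0732 in edgeR. With library size alone it was 0.90. Stromal cells are known sources of C3, and the 4 mice with the highest C3 had the highest sums of stromal markers in the same order. Among these, the sums of db/db replicate 2 and db/m replicate 1 were nearly equal. In db/m replicates 2 and 3 the order of C3 and of the stromal sum was reversed. This comparison was not planned. For the stromal list of 11 genes the sum was 42.1, 59.2 and 77.7 CPM in db/db replicates 1, 2 and 3 and 59.1, 14.4 and 10.7 CPM in db/m replicates 1, 2 and 3. None of its 4 defining markers (Col1a1, Col1a2, Pdgfrb and Dcn) was at 0 in all mice, and the part of stromal RNA in the level of C3 was not tested.

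**Figure D2:**
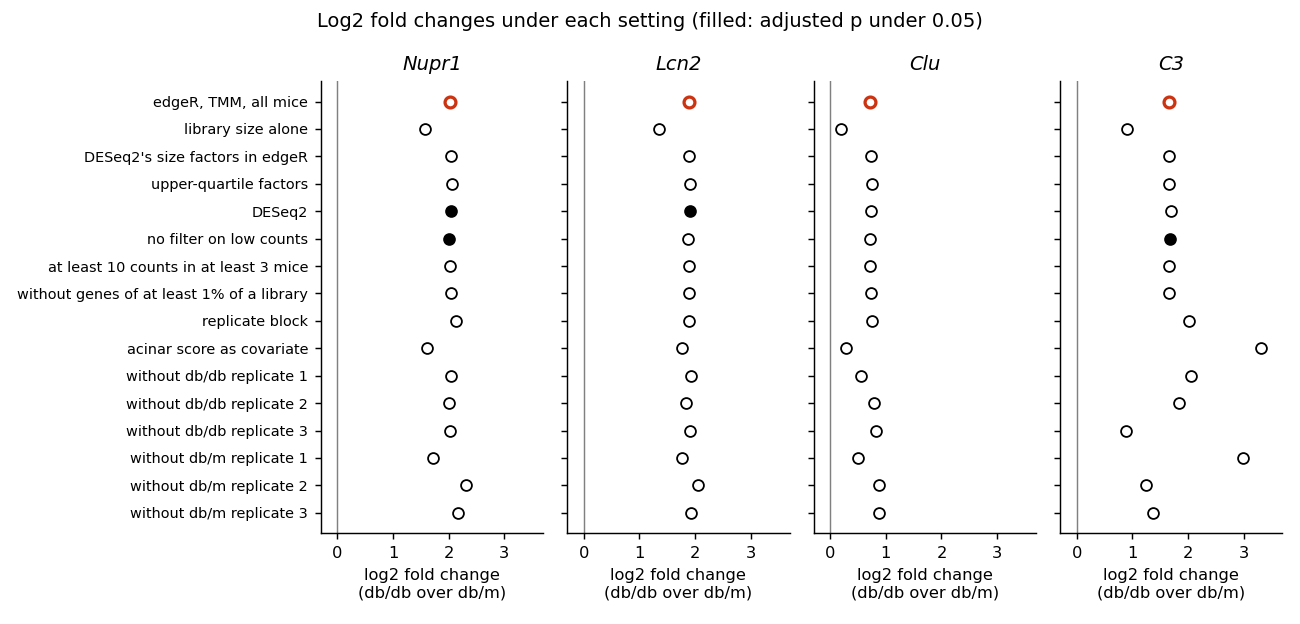
Log2 fold change (horizontal axis, db/db over db/m) of Nupr1, Lcn2, Clu and C3 under each processing setting (rows), with filled circles where the adjusted p was under 0.05 and the red circle for edgeR with TMM scaling and all mice. All values lie above 0; those of Nupr1 lie between 1.58 and 2.32, those of C3 between 0.88 and 3.32.

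The chemokines attract leukocytes, Cxcl1 mainly neutrophils and Ccl2 mainly monocytes. Cxcl1 lies on chromosome 5 from 90891241 to 90893115 (plus strand) and Ccl2 on chromosome 11 from 82035571 to 82037453 (plus strand). On Cxcl1, 3, 0 and 14 reads were counted in db/db replicates 1, 2 and 3, and 45, 6 and 7 in db/m replicates 1, 2 and 3. Ccl2 had 0, 1 and 6 reads in db/db and 25, 0 and 0 in db/m mice. For both genes db/m replicate 1 was the highest and db/db replicate 3 the second, so that the groups overlapped (exact permutation tests, p = 0.5 for Cxcl1 and 1.0 for Ccl2, two-sided). A gene on the opposite strand, Gm17268, spans Ccl2 without sharing exon bases and was not used here.

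Il1b, the main inflammasome product, was the only cytokine member with a read in every mouse. It lies on chromosome 2 from 129364570 to 129371139 on the minus strand. Its reads numbered 1, 5 and 11 in db/db and 33, 1 and 4 in db/m replicates 1, 2 and 3. The antisense gene Il1bos shares 25 exon bases with it and had at most 7 reads in any mouse, and whether the counting used the strand is not given in the sources used here. Il6, a cytokine that drives the acute phase response through STAT3, lies on chromosome 5 from 30013114 to 30019981 on the plus strand. It had 0, 0 and 5 reads in db/db and 35, 2 and 2 in db/m mice. Tnf, the prototype of its superfamily, lies on chromosome 17 from 35199381 to 35202007 on the minus strand and had 0, 0 and 6 reads in db/db and 14, 4 and 1 in db/m mice. All 3 cytokines had the same order as the chemokines, with db/m replicate 1 highest and db/db replicate 3 second. The groups overlapped for each (exact permutation tests, p = 0.9 for Il1b, 0.5 for Il6 and 0.5 for Tnf, two-sided). In edgeR without a filter the log2 fold changes of these 5 signals lay between -2.10 (Il6, adjusted p = 0.527) and -0.41 (Il1b, adjusted p = 0.886), and none had an adjusted p under 0.05.

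**Figure D3:**
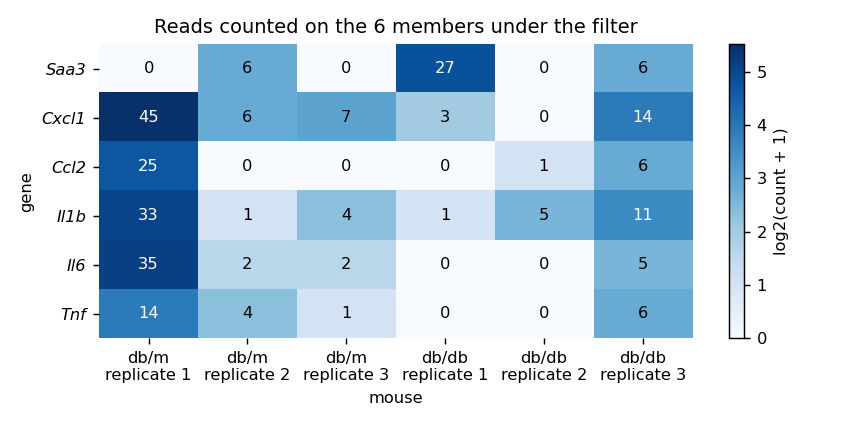
Reads counted on the 6 genes under the filter (rows) in each mouse (columns), with the number of reads printed in each cell and colour for log2(count + 1). The column of db/m replicate 1 holds the highest count of every gene except Saa3, which peaks in db/db replicate 1 with 27 reads.

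Matches to the NF-kB consensus near the start of Cxcl1 and Il6 are shown because both are known NF-kB targets. The matches, in capitals with 10 bases on either side, begin at base -71 of Cxcl1 (window chr5:90891164-90891193, plus strand) and at base -44 of Il6 (window chr5:30013060-30013089, plus strand) in GRCm38.p6.
Cxcl1: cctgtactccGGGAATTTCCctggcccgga
Il6: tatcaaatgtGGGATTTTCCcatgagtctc
In both genes a match begins again 1 base later and overlaps the one shown, and Cxcl1 holds a further one from -89 to -80 on the opposite strand. Both genes had their highest level in the same mouse, db/m replicate 1.

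Of all reads on these 5 signals, db/m replicate 1 held between 56.0% (Tnf) and 79.5% (Il6), and db/db replicate 3 held between 11.4% and 24.0%. The summed level was 0.321, 0.359 and 2.82 CPM in db/db replicates 1, 2 and 3, and 5.58, 0.757 and 0.758 CPM in db/m replicates 1, 2 and 3. Without db/m replicate 1, the remaining control mice lay within the range of the db/db mice. Lymphocyte markers were high in the same mice, whereas other immune cell markers followed this order only in part or not at all. The 15 lymphocyte markers summed to 26.8 CPM in db/db replicate 3 and 25.9 CPM in db/m replicate 1, against 1.68 to 6.66 CPM in the other mice. The 14 macrophage markers summed to 66.9, 18.7 and 70.2 CPM in db/db and to 51.5, 11.5 and 5.74 CPM in db/m replicates 1, 2 and 3, so that db/db replicate 1 was also high there. Much of these sums was Lyz2 alone, with 49.5, 9.15 and 39.3 CPM in db/db and 16.5, 4.43 and 0.704 CPM in db/m replicates 1, 2 and 3. The other defining macrophage markers, Adgre1, Csf1r and Cd68, were each highest in db/m replicate 1. No defining marker of either list was at 0 in all mice. Neutrophil markers summed to 4.17, 0.538 and 6.12 CPM in db/db and to 0.294, 1.28 and 0.271 CPM in db/m replicates 1, 2 and 3. They were thus low in db/m replicate 1, and the defining marker Ly6g had no read in any mouse. High sums in db/m replicate 1 were not particular to immune markers. It also had the highest sums of β-cell (25770 CPM), other endocrine (1946 CPM) and endothelial markers (59.8 CPM). The part of immune cells in the levels of the 5 signals was not tested.

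Genes of the immediate response to stimulation, such as Fos, moved in another way than the cytokines. Of 24 tested immediate-early genes, 11 were called by edgeR, beside 0.619% of all tested genes in either direction. All 11 fell in db/db mice, and the median log2 fold change over the list was -2.38. Their sum was 198.5 to 328 CPM in db/db and 1401 to 2384 CPM in db/m mice, without overlap. Atf3, a stress factor of this list, had 2.87 ± 1.78 CPM in db/db and 87.8 ± 28.5 CPM in db/m mice (SD, n = 3 each, log2 fold change -4.93, adjusted p = 0.00416 in edgeR). Unlike the 5 signals, this list was as high in db/m replicates 2 and 3 as in replicate 1. Nupr1 and Lcn2 lay in the opposite direction to it, and what links them was not tested.

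**Figure D4:**
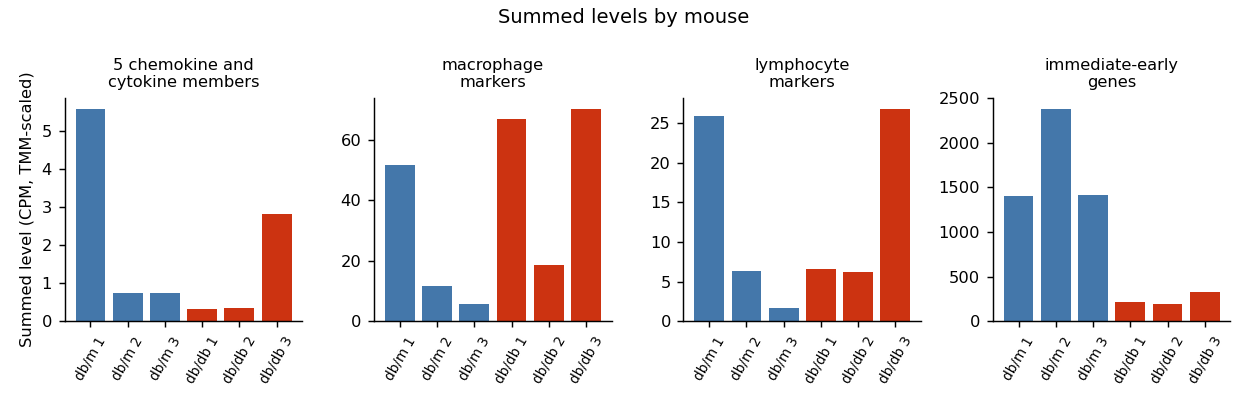
Summed expression level in CPM (vertical axis, linear from 0, TMM-scaled) of the 5 chemokine and cytokine genes, of macrophage and lymphocyte markers and of immediate-early genes in each mouse, blue for db/m and red for db/db. db/m replicate 1 and db/db replicate 3 are the highest for the 5 signals and the lymphocyte markers, whereas the immediate-early genes are high in all db/m mice.

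Of 19 genes for receptors through which the members act, 9 were tested, and none was called. Il1r1, the signalling receptor of IL-1, had 10.3, 33.8 and 35.2 CPM in db/db replicates 1, 2 and 3 and 173, 187 and 66.2 CPM in db/m replicates 1, 2 and 3. The db/db values were all below the lowest db/m value, as for 12.6% of all tested genes. Its log2 fold change of -2.42 had a standard error of 0.53 and an adjusted p of 0.0819 in edgeR, and the gene was called by DESeq2, without the filter, and without db/m replicate 3. Il6ra, the binding chain for IL-6, averaged 28.1 ± 2.49 CPM in db/db and 49.4 ± 17.6 CPM in db/m mice (SD, n = 3 each, log2 fold change -0.81, adjusted p = 0.252 in edgeR). Tnfrsf1a, the main receptor of TNF, averaged 18.2 ± 3.35 CPM and 11.6 ± 1.92 CPM (SD, n = 3 each, log2 fold change 0.65, adjusted p = 0.253 in edgeR). The receptors of the chemokines were near the limit, with no read on Cxcr1 in any mouse, at most 6 reads on Cxcr2 and at most 14 on Ccr2. β-cell markers, which were also lower in db/db mice, had a median log2 fold change of -2.56 over 14 tested genes. Of these, 5 were called, beside 0.619% of all tested genes in either direction. The part of the β-cell RNA in the level of Il1r1 was not tested.

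Downstream of the receptors, the transducers of NF-kB and JAK-STAT signalling showed no call among 26 tested genes, with a median log2 fold change of 0.08 beside -0.00 for all tested genes. Cebpd, a transcription factor of the acute phase, was the only one at an unadjusted p under 0.05, and it was lower (log2 fold change -1.44, adjusted p = 0.333 in edgeR). In the list of feedback regulators and targets of NF-kB, 4 of 16 tested genes were lower at an unadjusted p under 0.05 and none higher, beside 9.89% lower and 5.04% higher of all tested genes, and the median was -0.47. With the acinar covariate 2 of them were lower. Nfkbiz, which encodes IkB-zeta, a nuclear cofactor needed for induction of Lcn2 and Il6, was the only one called. Its level was 7.71, 12.3 and 9.28 CPM in db/db and 31.4, 53.6 and 38.7 CPM in db/m replicates 1, 2 and 3. It was lower in db/db mice by 2.08 on the log2 scale, with a standard error of 0.29 and an adjusted p of 0.0246 in edgeR. The call was lost with library size alone, in the fit with a replicate block, and without db/db replicate 1, 2 or 3 or db/m replicate 2, where the adjusted p lay between 0.0684 and 0.144. Zfp36, whose product destroys cytokine mRNAs, averaged 7.82 ± 4.21 CPM in db/db and 22.5 ± 3.35 CPM in db/m mice (SD, n = 3 each), with a log2 fold change of -1.53 and an adjusted p of 0.104 in edgeR. Socs3, the inhibitor of IL-6 signalling, had a log2 fold change of -1.30 and an adjusted p of 0.166. Zfp36 and Socs3, like Nfkbiz, had groups that did not overlap, beside 12.6% of all tested genes in this direction.

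Among 25 further acute phase genes, 8 were tested, and 4 of these were higher at an unadjusted p under 0.05, beside 5.04% of all tested genes, and none lower. The median log2 fold change was 0.91. The count of 4 rested on single mice and on the scaling. It was 0 without db/db replicate 3, 2 without db/db replicate 1, db/m replicate 1 or db/m replicate 3, and 1 with library size alone, the acinar covariate or the replicate block. The metallothioneins Mt1 and Mt2, which bind zinc and copper, had log2 fold changes of 1.79 and 1.97 (adjusted p = 0.246 and 0.234 in edgeR) with overlapping groups, and Itih4 had 0.87 (adjusted p = 0.325). No read was counted in any mouse on 8 of the 25, among them the fibrinogen chains Fga and Fgg, which the liver makes. In the complement list 2 of 19 tested genes were higher at an unadjusted p under 0.05 and none lower, with a median of 0.56. Over all tested genes 5.04% were higher and 9.89% lower. Without db/m replicate 1 there were 6 higher, without db/m replicate 2 there were 0, and without db/db replicate 1 or 2 there was 1. Cd59a, an inhibitor of the membrane attack complex, had a log2 fold change of 0.84 and an adjusted p of 0.267 in edgeR. No gene of 6 tested chemokines (of 32 listed) or of 7 other tested cytokines (of 30 listed) reached an unadjusted p under 0.05 in either direction, and the medians were 0.29 and -0.24.

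A list of 25 genes known from acinar injury and pancreatitis had 22 tested members, of which 6 were higher and 1 was lower at an unadjusted p under 0.05, beside 5.04% and 9.89% of all tested genes, with a median log2 fold change of 0.54. Without db/db replicate 2, and likewise with library size alone, 2 were higher. The gene that was lower was Krt7 (log2 fold change -1.34, adjusted p = 0.269 in edgeR). The sums of the list overlapped between the groups (4762 to 8877 CPM in db/db and 4550 to 9109 CPM in db/m mice). Reg3g, an antibacterial lectin induced in the inflamed pancreas, had 23.4, 26.2 and 55.5 CPM in db/db and 9.62, 2.62 and 9.69 CPM in db/m replicates 1, 2 and 3. The groups did not overlap, beside 8.53% of all tested genes in this direction, and the log2 fold change was 2.25 with an adjusted p of 0.0911 in edgeR. Other Reg genes of the list differed from it. The log2 fold change was near 0 for the more abundant Reg1 (-0.03), Reg2 (-0.10) and Reg3b (-0.05). It was 0.86 for Reg3a and 0.46 for Reg3d. Cd44, a hyaluronan receptor, had a log2 fold change of 1.58 (adjusted p = 0.185 in edgeR), and Krt19, a duct keratin, had 1.29 (adjusted p = 0.233 in edgeR), or 0.69 without db/db replicate 2. The 15 alternatives of processing, among them the acinar covariate, gave log2 fold changes of 1.65 to 2.54 for Reg3g. They gave 0.94 to 2.57 for Cd44 and 0.69 to 1.72 for Krt19. The 28 acinar markers themselves had a median of 0.69, and the part of a higher acinar RNA share in these values was not tested separately. All 20 genes of the integrated stress response list were tested, with a median log2 fold change of 0.20. At an unadjusted p under 0.05, 3 were higher and 3 lower, beside 5.04% and 9.89% of all tested genes. The higher ones were Trib3, Cebpg and Psat1, with log2 fold changes of 1.34, 0.81 and 0.80. Their adjusted p-values were 0.333, 0.331 and 0.322 in edgeR. The 3 higher ones became 0 without db/db replicate 3, db/m replicate 1 or db/m replicate 2, 1 without db/db replicate 1 and 5 without db/m replicate 3. The lower ones were Ppp1r15a, Ddit3 and Ddit4, with log2 fold changes of -1.66, -1.08 and -1.12 and adjusted p-values of 0.0654, 0.114 and 0.211 in edgeR. Ddit3 encodes CHOP, and Ppp1r15a the phosphatase subunit that ends the response. In the 9 lists together, 16 of 133 tested genes were higher and 11 lower at an unadjusted p under 0.05, beside 5.04% and 9.89% of all tested genes. Nfkbiz was the single call, beside 0.619% of all tested genes called in either direction.

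**Figure D5:**
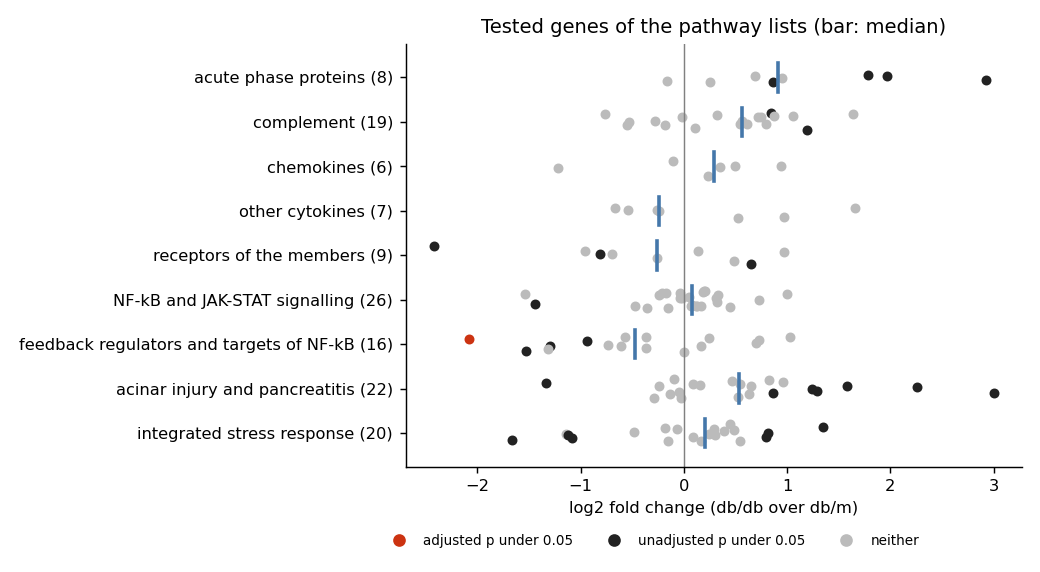
Log2 fold change (horizontal axis, db/db over db/m) of each tested gene in the 9 pathway lists, with the number tested in parentheses and a blue bar at the median of each list; vertical scatter within a list only separates points. Nfkbiz, at -2.08 and in red, is the only gene with an adjusted p under 0.05.

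The genes whose pattern over the 6 mice was most like that of a member were named for the 3 most abundant ones, by Pearson's r of log2(CPM + 1) over 11558 tested genes with a mean of at least 1 CPM. For Nupr1 they were Ppapdc2 (r = 0.993), Dnase2a (0.993) and Acbd6 (0.992). For Clu they were Tmem63b (0.999), Ubl7 (0.996) and Prpsap1 (0.996). For C3 they were C1s (0.996), which encodes a protease of the classical complement pathway, Xrcc6bp1 (0.982) and Ttyh3 (0.980). All points share the same 6 libraries and scaling factors, and the values are descriptions. Lcn2 followed Nupr1 closely except in db/m replicate 1. The ratio of Nupr1 to Lcn2 counts was 397, 363 and 384 in db/db and 215, 391 and 397 in db/m replicates 1, 2 and 3, and it overlapped between the groups (exact permutation test, p = 0.8, two-sided).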

How the data were processed

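RNA-seq libraries of islets from 3 db/db and 3 db/m mice were used. The authors filtered adaptor and low-quality reads, mapped them to mm10 (TopHat in the study's methods, HISAT2 2.0.4 in the submitters' processing notes) and deposited raw counts per gene symbol, without normalization. The counting program, annotation and use of strand are not given in the sources used here.

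From the deposited counts, groups were compared with edgeR 4.0.16 under R 4.3.3 (default filterByExpr, TMM scaling, quasi-likelihood F-test, Benjamini-Hochberg adjustment over 12760 genes, threshold 0.05). The common biological coefficient of variation was 0.355. The standard error was taken as the size of a log2 fold change over the root of its F. Single values were compared by exact permutation tests of log2(CPM + 1). The intervals and the floor of 3 counts cover counting error only. Between replicates of a group the chi-square per degree of freedom was 26.4 to 147, above counting noise.

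The members and the gene lists were chosen with earlier results of these data known. Besides the members, the text names in each list the called genes, the 3 with the smallest unadjusted p under 0.05 and a mean of at least 1 CPM, defining markers, paralogs and overlapping genes, and, for the 3 most abundant members, the 3 genes with the most similar pattern. Fga, Fgg, Cxcr1, Cxcr2, Ccr2, Trib3, Cebpg, Psat1, Reg1, Reg2, Reg3a, Reg3b and Reg3d were chosen after their values were seen. A few genes that meet this rule are not reported here. In the lists 7 symbols were matched by older names.

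Positions, and stretches of 50 bases shared between genes, came from GENCODE for GRCm38, and promoters and mRNA lengths from RefSeq (GRCm38.p6). Promoters were found for 8 of 10 members. Motifs were searched on both strands. Python 3.11.15 and matplotlib 3.10.9 were used. The scripts were tested on simulated data. The alternatives were DESeq2 1.42.0, library size alone, DESeq2's size factors, upper-quartile factors, no filter, a filter of 10 counts in 3 or more mice, removal of genes that reach 1% of any library, a replicate block, an acinar score as a covariate, and leaving out each mouse. All annotated exons as length was added after seeing the data.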

Additional observations from a re-analysis of the deposited data

How the results depend on the processing

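The log2 fold changes of Nupr1 (1.58 to 2.32), Lcn2 (1.36 to 2.05), Clu (0.19 to 0.89) and C3 (0.88 to 3.32) were above 0 in all 15 alternatives. None was called by edgeR with the filter on low counts. With DESeq2 2 members were called, Nupr1 (2.04) and Lcn2 (1.91), and 4 had an unadjusted p under 0.05. Without the filter 2 were called, Nupr1 (2.01) and C3 (1.675), and 4 had an unadjusted p under 0.05, with the cause not tested. Leaving out 1 mouse gave 1.72 to 2.32 for Nupr1, 1.76 to 2.05 for Lcn2, 0.51 to 0.89 for Clu and 0.88 to 2.98 for C3. Library size alone moved the median of all genes to -0.59; relative to it, Nupr1 lay at 2.17, Lcn2 at 1.95, C3 at 1.49 and Clu at 0.78.

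Over all genes 79 were called, against 21 with library size alone, 52 with upper-quartile factors, 664 with DESeq2, 888 without the filter and 10 to 333 with 1 mouse left out, the highest without db/m replicate 3. Of the genes in the lists 1 was called, against 0 with library size alone, 8 with DESeq2, 17 without the filter, 2 with the acinar covariate and 0 to 5 with 1 mouse left out. With the replicate number as a block, 16 genes and 0 list genes were called, and the adjusted p in edgeR was 0.250 for Nupr1 and 0.370 for Lcn2. Deviations of same-numbered mice correlated at -0.53, -0.20 and -0.32, which shows no pairing by number. These values cannot exclude a pairing, because the lowest and the highest TMM factor both fell on replicate 1 of their group. With all annotated exons as length, the mean levels per kilobase over the groups were 257.6 CPM in place of 1035 for Nupr1, 180.4 in place of 342 for Clu and 0.661 in place of 2.03 for Lcn2. Counts of at most 45 reads limit what can be said of Saa3 and the 5 signals.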

Other observations

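Marker lists of other cell types were summed in each mouse. The 9 duct genes gave 142 to 171 CPM in db/db and 107 to 153 CPM in db/m mice. Of the 8 tested, Krt19 was higher and Krt7 lower in db/db mice at an unadjusted p under 0.05. The 10 endothelial genes gave 15.57 to 32.9 CPM in db/db and 25.1 to 59.8 CPM in db/m mice, and Kdr, the VEGF receptor, had a log2 fold change of -1.31 (adjusted p = 0.269 in edgeR). The other endocrine genes, with 7 tested and none at an unadjusted p under 0.05, gave 418 to 878 CPM and 307 to 1946 CPM. Adipocyte markers gave 0.418 to 1.61 CPM and 0.920 to 7.51 CPM, and mesothelial markers 0.723 to 2.93 CPM and 0.975 to 4.33 CPM.

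Of 15 cytosolic heat shock genes, all tested, 7 were lower and none higher in db/db mice at an unadjusted p under 0.05, beside 9.89% of all tested genes lower, and none was called by edgeR. The median log2 fold change was -0.79, and the sums of the list overlapped between the groups (643.5 to 1784 CPM in db/db and 1579 to 2290 CPM in db/m mice). Hspa1a, an inducible chaperone, averaged 26.6 ± 15.0 CPM in db/db and 130 ± 47.4 CPM in db/m mice (SD, n = 3 each, log2 fold change -2.29, adjusted p = 0.0819 in edgeR). Its groups did not overlap, beside 12.6% of all tested genes in this direction.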
